A study of Mus musculus with 6 samples.

Results

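The genes described here are those on the arrays whose names mark them as belonging to the respiratory complexes II, III, IV and V: the Sdh genes a to d (complex II), the Uqcr genes and Cyc1 (complex III), the Cox4 to Cox8 genes (complex IV) and the Atp5 genes (complex V). The rule used names only and no measured value. It found 49 of the 34812 genes on the arrays, with 4 in complex II, 9 in complex III, 18 in complex IV and 18 in complex V. Of these, 4 encode no subunit and were kept because their names match: Cox7a2l, an assembly factor of respiratory supercomplexes, the pseudogene Atp5c1-ps, and Atp5s and Atp5sl, which RefSeq now calls Dmac2l and Dmac2. Each gene was read from its brightest probe, and 43 of the 49 were well above background on all 6 arrays.

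Complex II, succinate dehydrogenase, passes electrons from the citric acid cycle to ubiquinone. Complex III carries them on to cytochrome c, complex IV hands them to oxygen, and complex V, the ATP synthase, uses the resulting proton gradient to make ATP. All subunits of complex II are encoded in the nucleus, whereas complexes III, IV and V also hold subunits encoded by mitochondrial DNA. In macrophages the balance between this chain and glycolysis changes with activation. AGO2 is the Argonaute protein that carries microRNAs to their target transcripts, and Dicer cuts the microRNA precursors, so transcripts that come down with AGO2 in cells with and without Dicer are compared to find those bound through microRNAs.

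The arrays measured RNA of bone marrow-derived macrophages from LysM-Cre, Dicer flox/flox, Apoe-/- mice (Dicer KO) and from LysM-Cre, Dicer wt/wt, Apoe-/- mice (Dicer WT), with 1 array for each genotype and each of 3 RNA fractions: precipitated with an antibody to AGO2 (AGO2-RIP), precipitated with control IgG (IgG-RIP), and taken before precipitation (input). LysM-Cre acts in myeloid cells, so any other cell type in the culture would keep its Dicer, and both genotypes lack Apoe. The mice were 6 to 8 weeks old and labelled male, and the marrow cells were grown for 7 days in medium conditioned by L929 cells. With 1 array per group a difference between 2 arrays has no replicate check and no p-value. Repeated spots of the same probe varied with an SD of 0.14 to 0.17 on the log2 scale within an array, which gives a spot noise of 0.20 to 0.23 for a difference between arrays, and this leaves out the variation of cultures and precipitations.

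The labels were checked against marker transcripts, with levels given as log2 signal relative to the array's 75th percentile. Of 8 macrophage markers, 8 were above background on each KO array and 7 or 8 on each WT array, with a summed level of 9.78 to 10.32 on the KO arrays and 9.92 to 10.44 on the WT arrays. Markers of B cells, neutrophils and fat were above background on 0 arrays. Of the T cell markers Cd3e was above background on 5 arrays (all but WT input) and Cd3g on 0. Of the dendritic cell markers Flt3 was so on 3 arrays (both KO precipitates and the WT IgG-RIP) and Zbtb46 on the KO IgG-RIP array, and of the fibroblast markers Col1a2 was so on 4 arrays (all 3 KO arrays and the WT AGO2-RIP) and Col1a1 on 0. The part of these in the results was not tested. The WT arrays went against their label of male: Xist was above background on all 3 of them, at 0.14 to 5.70, and on no KO array, whereas the Y-linked Ddx3y was above background on the 3 KO arrays only, at 0.51 to 1.81. The KO and WT arrays also lay on different rows of the slide, so genotype, sex and slide row cannot be told apart in any KO against WT value, and no WT array can be left out without ending the comparison. In input RNA, Dicer1 had a level of -0.55 in KO and 0.22 in WT cells, and the sources used here do not give which exon is floxed, so this does not check the deletion. Lyz2, the gene that drives the Cre, was above background on all KO arrays and only on the IgG-RIP array among the WT arrays.

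The probes are 60 bases long and annotated on the mouse build mm9. Before labelling, the cDNA was cut with Alu I (which cuts AGCT) and Rsa I (which cuts GTAC), so a probe with such a site reads a sequence that was itself cut. Some coding probes are shown because the results below turn on them. Those of Cox7a1 and Cox6b1 were higher with AGO2 than with IgG, and that of Uqcrc1 was so in WT cells alone. The probe of Cox4i1 was among the lowest over input, and that of Cyc1 was so for AGO2-RIP in KO cells. They lie at chr7:30970337-30970948 (Cox7a1, plus strand, across an exon junction), chr7:31409575-31411071 (Cox6b1, minus strand, across a junction), chr9:108851008-108851487 (Uqcrc1, across a junction), chr8:123197924-123197983 (Cox4i1) and chr15:76175938-76175997 (Cyc1). The sequences run 5′ to 3′, with cut sites in capitals.
Cox7a1: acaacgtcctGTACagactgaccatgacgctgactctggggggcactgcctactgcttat
Cox6b1: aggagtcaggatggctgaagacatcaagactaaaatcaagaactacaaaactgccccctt
Uqcrc1: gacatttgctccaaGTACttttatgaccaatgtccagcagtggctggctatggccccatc
Cox4i1: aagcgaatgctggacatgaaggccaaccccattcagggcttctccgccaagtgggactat
Cyc1: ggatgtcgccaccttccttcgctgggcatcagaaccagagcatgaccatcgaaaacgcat

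Set against IgG-RIP, the AGO2-RIP of KO cells held these transcripts at about the level of the control, and that of WT cells held most of them above it. The median of the measured genes was 0.03 in KO cells (44 genes) and 0.84 in WT cells (43 genes) on the log2 scale. The medians of all measured genes were -0.19 in KO and -0.24 in WT cells. At least 2-fold higher with AGO2 were 3 genes in KO cells, where 10.5% of all genes were, and 15 genes in WT cells, where 20.3% were. At least 2-fold lower were 2 genes in KO cells (9.91% of all genes) and 1 gene in WT cells (22.2% of all genes). With arrays centred on their medians instead, 25 genes were at least 2-fold higher in WT cells. So were 3984 of all 15213 genes, against 3092 before centring. Before centring, 38 of the 43 WT values lay above 0, against 25 of 44 in KO cells. Over all genes, 6568 of 15213 WT values and 6163 of 15651 KO values did. In the plot of single genes by complex, most WT values lay above 0 in all 4 complexes. Among genes measured in both genotypes, the KO value was above the WT value for 2 of 4 in complex II and 4 of 17 in complex V. In complexes III and IV it was so for 0 of 9 and 0 of 13 genes, and over all genes for 6848 of 14052. Cox4i2 of complex IV, not measured in WT cells, had a WT bound of -1.82, below its KO value of -0.57.

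**Figure D1:**
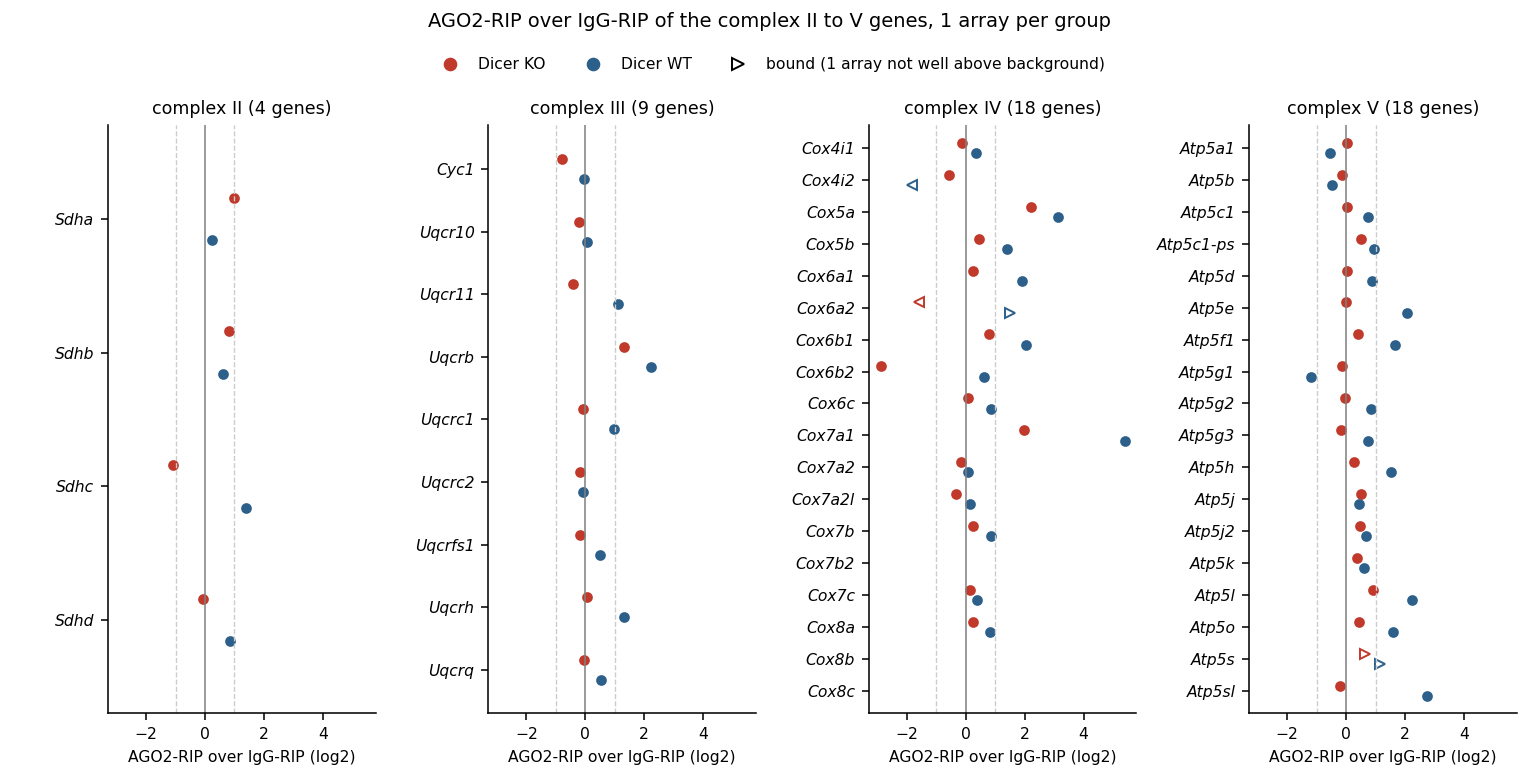
AGO2-RIP over IgG-RIP on the log2 scale for each gene (rows) of complexes II to V (panels), with the Dicer KO value in red above the Dicer WT value in blue. Dashed lines mark 2-fold, open triangles are bounds for genes not well above background on 1 of the 2 arrays, and rows without a point had no measured value. The WT points lie mostly to the right of 0, up to 5.42 for Cox7a1, and the KO points lie on both sides of 0, with 25 of 44 above it.

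The 4 genes of complex II did not share a direction in KO cells. Their median was 0.37 in KO and 0.74 in WT cells. Sdha, the flavoprotein that oxidises succinate, had levels of 1.90 (KO) and 1.64 (WT) on the AGO2-RIP arrays, 0.91 (KO) and 1.39 (WT) on the IgG-RIP arrays and 2.53 (KO) and 2.20 (WT) on the input arrays. AGO2 over IgG was 0.99 in KO, close to 2-fold, and 0.25 in WT cells. Sdhb, the iron-sulfur subunit, had 1.65 (KO) and 1.92 (WT) with AGO2, 0.84 (KO) and 1.32 (WT) with IgG and 2.59 (KO) and 2.85 (WT) in input, so AGO2 over IgG was 0.81 in KO and 0.61 in WT cells. Its second probe gave -1.22 in KO and 0.39 in WT cells, and the KO value of Sdhb therefore depends on the probe.

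The membrane anchors that bind ubiquinone, Sdhc and Sdhd, differed between genotypes. Sdhc had 2.27 (KO) and 4.13 (WT) with AGO2, 3.36 (KO) and 2.72 (WT) with IgG and 4.55 (KO) and 4.51 (WT) in input. That is -1.08 in KO and 1.40 in WT cells for AGO2 over IgG, with input arrays that differed by 0.04. The second Sdhc probe gave 0.08 in KO and 1.06 in WT cells: higher in WT as well, but not below 0 in KO. Sdhd had 2.70 (KO) and 3.39 (WT) with AGO2, 2.77 (KO) and 2.53 (WT) with IgG and 4.13 (KO) and 4.29 (WT) in input, which gives -0.07 in KO and 0.87 in WT cells.

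In complex III the small subunit Uqcrb stood highest in both genotypes. Uqcrb, which takes part in ubiquinone binding, had 6.06 (KO) and 6.85 (WT) with AGO2, 4.74 (KO) and 4.63 (WT) with IgG and 6.53 (KO) and 6.83 (WT) in input. AGO2 over IgG was 1.32 in KO and 2.22 in WT cells, and all 3 Uqcrb probes lay at 1.27 to 1.42 in KO and 2.22 to 2.48 in WT cells. Uqcrh, the hinge protein, had 0.05 in KO and 1.33 in WT cells, and Uqcr11, an accessory subunit, had -0.43 in KO and 1.12 in WT cells. The complex median was -0.18 in KO and 0.53 in WT cells.

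The catalytic and core subunits of complex III lay below Uqcrb in both genotypes, but not all lay below the other accessory subunits. Cyc1, cytochrome c1, had 0.15 (KO) and 0.74 (WT) with AGO2, 0.95 (KO) and 0.79 (WT) with IgG and 2.49 (KO) and 2.43 (WT) in input, and its AGO2 over IgG values were -0.80 in KO and -0.05 in WT cells. Uqcrfs1, the Rieske iron-sulfur protein, had -0.18 in KO and 0.51 in WT cells. The core subunits differed from each other: Uqcrc1 had -0.08 in KO and 0.98 in WT cells, and Uqcrc2 had -0.20 in KO and -0.08 in WT cells. Uqcrc2 is printed in 10 spots, whose SD on 1 array was 0.026 to 0.072, so its values are the most precise of the set. Uqcrq, another accessory subunit, had -0.05 in KO and 0.53 in WT cells. Uqcr10 had -0.20 in KO and 0.07 in WT cells by its brightest probe, whereas its other 2 probes gave -0.00 to 0.02 in KO and 1.29 to 1.38 in WT cells.

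Complex IV held the highest value of the whole set. Cox7a1, the heart and muscle isoform of subunit VIIa, had 3.08 (KO) and 5.01 (WT) with AGO2, 1.10 (KO) and -0.42 (WT) with IgG and 1.61 (KO) and 1.73 (WT) in input. AGO2 over IgG was 1.98 in KO cells, or 3.94-fold, and 5.42 in WT cells, or 42.9-fold. It was also higher with AGO2 than in input, by 1.47 in KO and 3.27 in WT cells, while the input arrays differed by -0.12. The WT AGO2-RIP array was the highest and the WT IgG-RIP array the lowest of the 6. The muscle markers Ckm and Myh1 were above background on 0 arrays, Acta1 on the KO input array only, and Tnnt3 on all 6, with a summed level of the 4 markers of -0.69 to 0.04 on the KO arrays and -0.94 to -0.34 on the WT arrays. Tnnt3 had AGO2 over IgG values of 1.02 in KO and -0.24 in WT cells, and its part in the Cox7a1 result was not tested.

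The other VIIa genes did not share this pattern. Cox7a2, the isoform found in most tissues, had 3.06 (KO) and 3.31 (WT) with AGO2, 3.22 (KO) and 3.25 (WT) with IgG and 5.27 (KO) and 5.77 (WT) in input, so AGO2 over IgG was -0.15 in KO and 0.06 in WT cells. Cox7a2l had -0.33 in KO and 0.15 in WT cells, and its 3 probes ranged from -0.36 to 0.07 in KO and from -0.02 to 0.43 in WT cells.

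Cox5a, a subunit of the matrix side, was high in both genotypes. It had 5.61 (KO) and 6.62 (WT) with AGO2, 3.38 (KO) and 3.49 (WT) with IgG and 5.23 (KO) and 5.41 (WT) in input, which gives 2.23 in KO (4.69-fold) and 3.13 in WT cells (8.76-fold). Cox5b, its partner on the matrix side, had 0.44 in KO and 1.39 in WT cells. Both Cox5a precipitates with AGO2 lay above their input arrays, by 0.38 in KO and 1.21 in WT cells, whereas both Cox5b precipitates lay below, at -1.33 in KO and -0.77 in WT cells.

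Between the isoforms of the other complex IV subunits, the form found in most tissues was measured on all arrays and the tissue-specific form was often dim. Cox4i1 had 4.59 (KO) and 4.93 (WT) with AGO2, 4.72 (KO) and 4.59 (WT) with IgG and 7.20 (KO) and 7.24 (WT) in input, or -0.13 in KO and 0.34 in WT cells for AGO2 over IgG. Cox4i2, the lung isoform, was above background on 3 arrays, at -1.11 on the KO AGO2-RIP, -0.54 on the KO IgG-RIP and -0.70 on the WT IgG-RIP array. AGO2 over IgG was -0.57 in KO cells. In WT cells it read 3.54-fold lower, with the dim AGO2-RIP reading of -2.52 taken as it is. A bound here is the bright value less the dim probe's reading or, where that is lower, less the dimmest spot that passed as well above background on the same array. Where the dim reading itself is used, the bound equals the plain difference and is no strict limit.

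Cox6a1 had 5.22 (KO) and 6.86 (WT) with AGO2, 4.96 (KO) and 4.96 (WT) with IgG and 6.62 (KO) and 6.81 (WT) in input. Its AGO2 over IgG values were 0.26 in KO and 1.91 in WT cells, and on the WT side the AGO2-RIP and input arrays differed by 0.06. Cox6a2, its heart and muscle isoform, was dim on the KO AGO2-RIP array (-2.47) and on the WT IgG-RIP array (-3.27), against -0.87 on the KO IgG-RIP and -0.54 on the WT AGO2-RIP array. It read 3.03-fold lower with AGO2 than with IgG in KO cells, with the dim reading taken as it is, and was at least 2.81-fold higher in WT cells.

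Cox6b1, which faces the intermembrane space, had 2.96 (KO) and 4.41 (WT) with AGO2, 2.17 (KO) and 2.35 (WT) with IgG and 5.30 (KO) and 5.56 (WT) in input, or 0.78 in KO and 2.05 in WT cells for AGO2 over IgG. Its testis isoform Cox6b2 had -1.80 (KO) and 0.31 (WT) with AGO2, 1.08 (KO) and -0.32 (WT) with IgG and -0.73 (KO) and 0.03 (WT) in input. That gave -2.88 in KO, the lowest value of the set, and 0.63 in WT cells. Cox6b2 has 1 probe, and its KO AGO2-RIP level was not far above the dimmest passing spot of that array (-2.54). Cox7b had 0.25 in KO and 0.86 in WT cells, and Cox8a 0.24 in KO and 0.84 in WT cells, while their relatives Cox7b2, Cox8b and Cox8c were above background on 0 arrays.

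In complex V the highest subunit in both genotypes was Atp5l. Atp5l, subunit g, which lies where ATP synthases pair, had 7.30 (KO) and 8.29 (WT) with AGO2, 6.39 (KO) and 6.05 (WT) with IgG and 7.89 (KO) and 8.21 (WT) in input. AGO2 over IgG was 0.91 in KO and 2.25 in WT cells, and its 6 probes lay at 0.91 to 1.22 in KO and 2.08 to 2.25 in WT cells. Atp5e, the epsilon subunit of the rotor, had 5.70 (KO) and 7.02 (WT) with AGO2, 5.69 (KO) and 4.95 (WT) with IgG and 7.39 (KO) and 7.98 (WT) in input, or 0.01 in KO and 2.07 in WT cells. Of the stalk subunits, Atp5f1 (subunit b) had 0.40 in KO and 1.66 in WT cells, Atp5h (subunit d) 0.25 in KO and 1.53 in WT cells, and Atp5o 0.45 in KO and 1.59 in WT cells.

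The alpha and beta subunits, which form the catalytic head, lay below 0 in WT cells. Atp5a1 (alpha) had 4.71 (KO) and 3.95 (WT) with AGO2, 4.70 (KO) and 4.51 (WT) with IgG and 5.85 (KO) and 5.79 (WT) in input, so AGO2 over IgG was 0.02 in KO and -0.56 in WT cells. Atp5b (beta) had 3.30 (KO) and 2.84 (WT) with AGO2, 3.45 (KO) and 3.33 (WT) with IgG and 4.59 (KO) and 4.57 (WT) in input, or -0.15 in KO and -0.49 in WT cells. The gamma subunit Atp5c1 (0.04 in KO, 0.76 in WT) and the delta subunit Atp5d (0.02 in KO, 0.88 in WT) did not share this. The pseudogene Atp5c1-ps had 0.51 in KO and 0.95 in WT cells, and its probe may also bind Atp5c1 transcripts.

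The 3 genes for the c subunit of the rotor ring encode the same mature protein. Atp5g2 had -0.03 in KO and 0.84 in WT cells, and Atp5g3 had -0.17 in KO and 0.74 in WT cells. Atp5g1 had 6.10 (KO) and 5.35 (WT) with AGO2, 6.25 (KO) and 6.55 (WT) with IgG and 4.04 (KO) and 4.30 (WT) in input by its brightest probe, which is annotated to an Ensembl transcript. AGO2 over IgG was -0.15 in KO and -1.20 in WT cells by that probe. Its other probe, annotated to a RefSeq transcript, gave -0.03 in KO and 0.72 in WT cells, close to the values of the other two genes, and the Atp5g1 values below therefore hold for 1 probe.

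Of the names that encode no ATP synthase subunit, Atp5sl had 0.22 (KO) and 1.29 (WT) with AGO2, 0.42 (KO) and -1.47 (WT) with IgG and 0.54 (KO) and 1.18 (WT) in input, or -0.20 in KO and 2.76 in WT cells. It has 1 probe, and its WT IgG-RIP level was not far above the dimmest passing spot of that array (-2.03). Atp5s was above background on the KO AGO2-RIP (-1.51), WT AGO2-RIP (-0.87) and WT input (-1.33) arrays, and was at least 1.56-fold higher with AGO2 than with IgG in KO cells and at least 2.23-fold higher in WT cells.

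The levels of 8 of these genes on each array show the different courses. Uqcrb, Cox5a and Atp5l were higher with AGO2 than with IgG in both genotypes. Of these, only Cox5a was also above input in both. Uqcrb and Atp5l lay below input in KO cells (-0.47 and -0.59) and near it in WT cells (0.02 and 0.09). Sdhc was split by genotype, Uqcr10 was low in both precipitates, and Atp5g1 was lowest in input by its Ensembl probe.

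**Figure D2:**
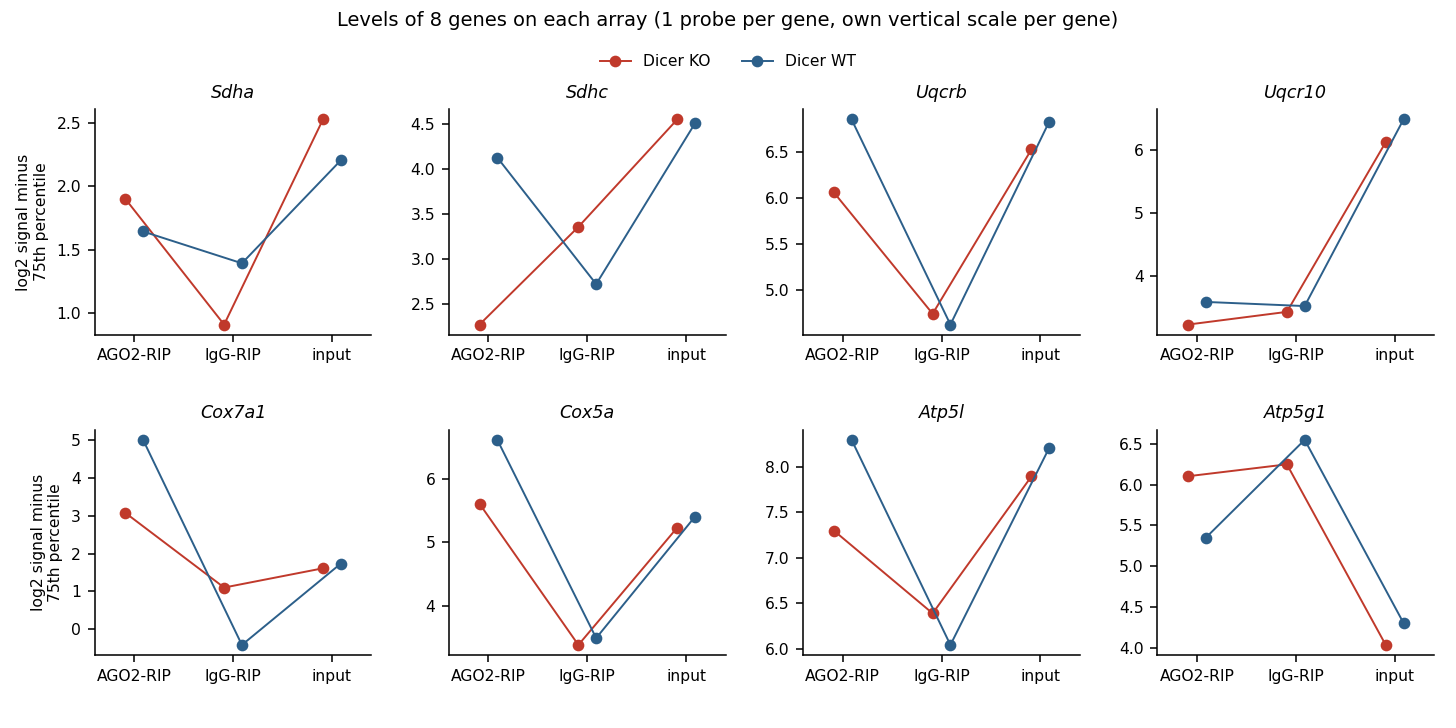
Log2 signal relative to the array's 75th percentile for 8 genes (panels, each with its own vertical scale) on the AGO2-RIP, IgG-RIP and input arrays, with Dicer KO in red and Dicer WT in blue and 1 point per array. Cox7a1 reads 5.01 on the WT and 3.08 on the KO AGO2-RIP array, above all its other arrays, and Uqcr10 is over 2-fold lower in all 4 precipitates than in input.

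Second probes gave a check within each array. Of the 49 genes, 19 had at least 2 probes, and 18 of these had at least 2 that were measured. The range over a gene's probes for AGO2 over IgG had a median of 0.21 in KO and 0.22 in WT cells, close to the spot noise. It was over 1 for 2 genes in KO cells (Sdhb, with 2.03, and Sdhc) and for 2 genes in WT cells (Atp5g1, with 1.92, and Uqcr10). The probes of a gene differed in sign for 8 genes in KO cells and for 2 genes in WT cells.

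**Figure D3:**
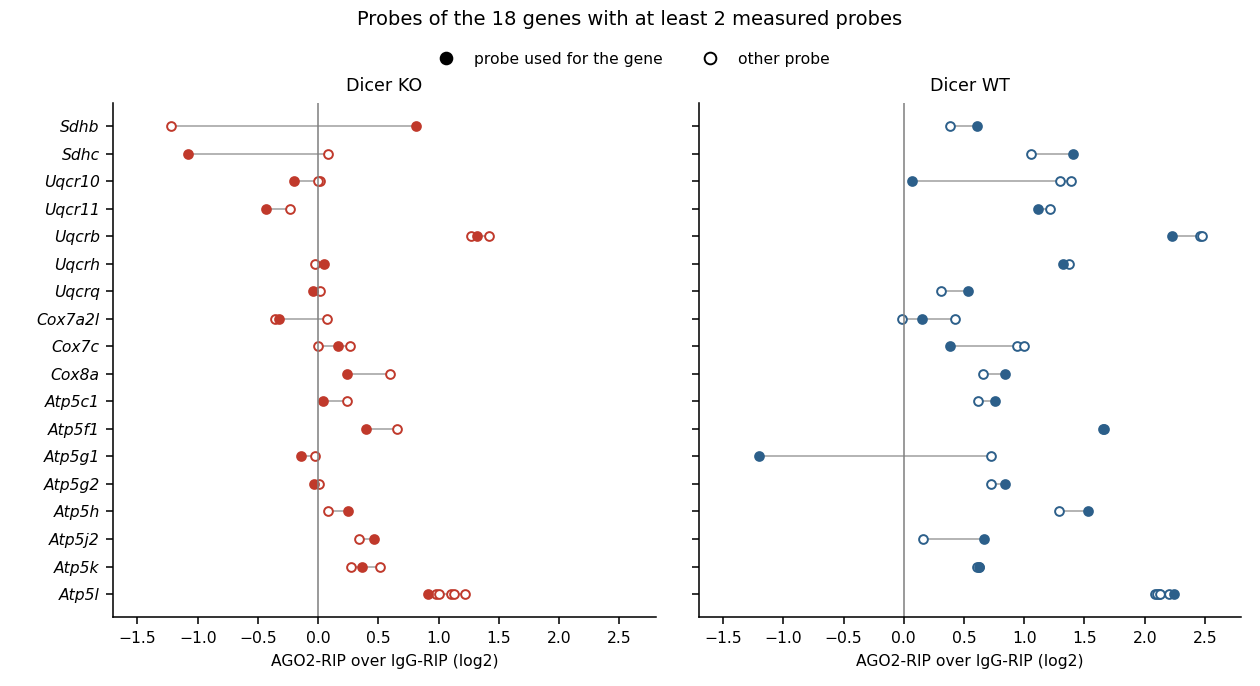
AGO2-RIP over IgG-RIP on the log2 scale for every measured probe of the 18 genes with at least 2, with Dicer KO on the left and Dicer WT on the right. Filled points are the probe used for the gene, open points its other probes, and grey lines join them. The 6 Atp5l probes lie within 2.08 to 2.25 in WT cells, and the widest spreads are those of Sdhb in KO cells and Atp5g1 in WT cells.

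Across the 43 genes measured in both genotypes, the KO and WT values of AGO2 over IgG, which share no array, had a Pearson correlation of 0.52, with an SD of 0.77 in KO and 1.11 in WT cells. Across the 14052 such genes of the arrays it was 0.45, with an SD of 0.86 in KO and 1.32 in WT cells. These are descriptions across genes, which are not independent and whose probes were spread over the same arrays. Fitted over both genotypes with limma (fraction plus genotype, 6 arrays, with the 2 genotypes serving as the replicates of a fraction), AGO2-RIP over IgG-RIP had 0 of 18894 genes called at an adjusted p under 0.05 (0% in each direction), although 3554 had an unadjusted p under 0.05. Of the 46 complex II to V genes in the fit, 6 were higher and 1 was lower at an unadjusted p under 0.05. With normexp background correction 2 were called higher, where 248 of all 18894 genes were. An intensity trend also gave 2, where 378 of 18894 genes were called higher. A filter that kept genes bright on every array gave 3, where 538 of 12387 genes were. In the main fit the lowest adjusted p was that of Cox5a, with a log2 difference of 2.68 ± 0.43 (SE) and a limma adjusted p of 0.087. Next came Cox7a1, at 3.70 ± 0.83 (limma adjusted p = 0.13), and Uqcrb, at 1.77 ± 0.42 (limma adjusted p = 0.14), apart from Atp5s, which was dim on 3 arrays. A gene whose difference between fractions changes with genotype has a large error in this fit.

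Both precipitates held less of these transcripts than the input did, compared with other genes. AGO2-RIP over input had a median of -1.39 in KO and -1.08 in WT cells, against -0.24 for all genes in either genotype. At least 2-fold lower were 34 of 43 genes in KO cells (26.4% of all genes) and 24 of 45 in WT cells (26.3% of all genes), and at least 2-fold higher were 2 in KO (14.6% of all genes) and 3 in WT cells (14.8%). IgG-RIP over input had a median of -1.63 in KO and -2.16 in WT cells, against -0.26 (KO) and -0.45 (WT) for all genes. At least 2-fold lower were 36 of 44 genes in KO (28.8% of all genes) and 39 of 43 in WT cells (37.0%), and at least 2-fold higher were 2 in KO (17.5%) and 1 in WT cells (18.6%). Equal amounts of cDNA, 500 ng, went on every array, so these are shares of the RNA in a fraction and not amounts. In such bulk samples fewer cells of a type and less RNA per cell cannot be told apart.

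The complexes differed little over input. For AGO2-RIP the medians were -1.18 (II), -1.41 (III), -1.43 (IV) and -1.32 (V) in KO cells, and -0.73, -1.31, -1.27 and -1.02 in WT cells in the same order. For IgG-RIP they were -1.49, -1.54, -1.71 and -1.71 in KO and -1.65, -2.20, -2.15 and -2.27 in WT cells. The ranges of the complexes overlapped in all 7 comparisons, and complex II, the smallest, had the least negative median in all 4 of these.

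**Figure D4:**
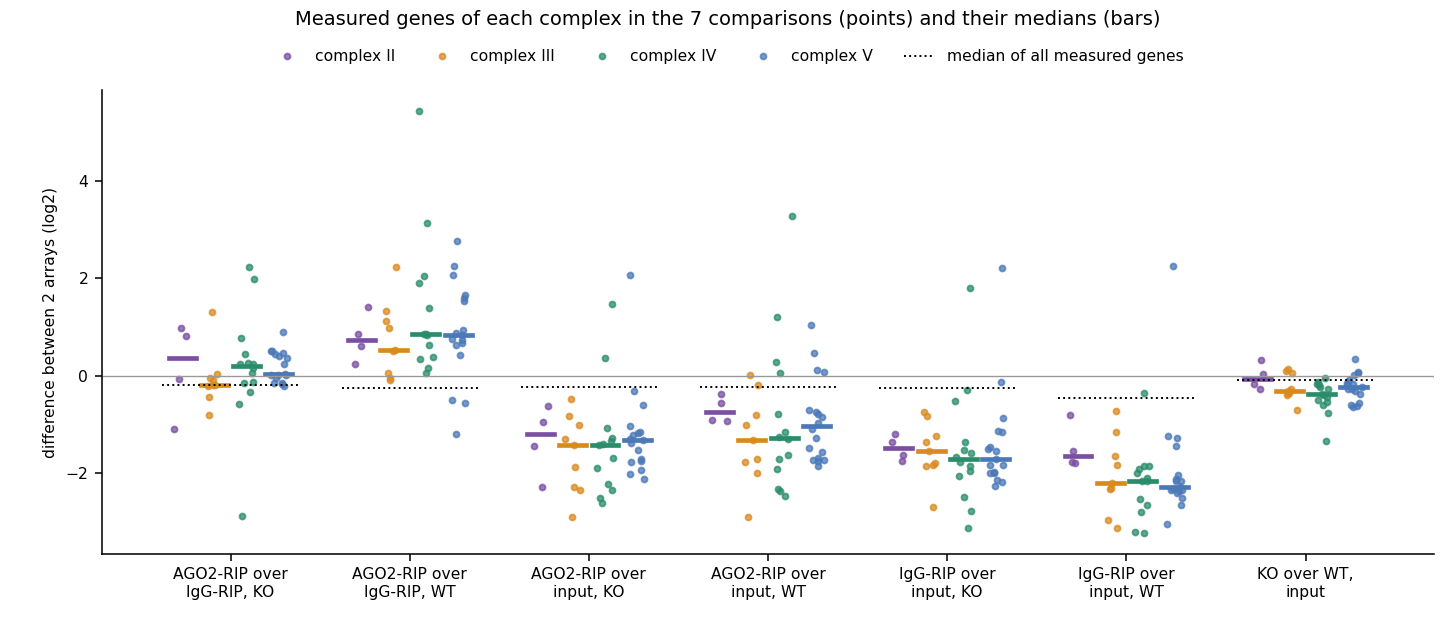
Log2 difference between 2 arrays for each measured gene (points) of complexes II to V (colours) in the 7 comparisons, with a bar at each complex median and a dotted line at the median of all measured genes. For both precipitates over input all complex medians lie below the dotted line, between -0.73 and -2.27, and for AGO2-RIP over IgG-RIP in WT cells all lie above it, between 0.53 and 0.86.

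Uqcr10, a small accessory subunit of complex III, had 3.23 (KO) and 3.58 (WT) with AGO2, 3.43 (KO) and 3.52 (WT) with IgG and 6.12 (KO) and 6.48 (WT) in input. AGO2 over input was -2.89 in KO and -2.90 in WT cells, the lowest of the set in both. Next in KO cells came Cox4i1 (-2.61), Cox7b (-2.51), Cox6b1 (-2.34) and Cyc1 (-2.34), and in WT cells Cox7a2 (-2.46), Cox7b (-2.35), Cox4i1 (-2.31) and Uqcr11 (-2.00). In complex V the lowest were Atp5d in KO (-2.11) and Atp5a1 in WT cells (-1.84). Above input were Atp5g1 by its Ensembl probe (2.07 in KO, 1.04 in WT), Cox7a1 and Cox5a. In WT cells Atp5s (0.46) and Cox6b2 (0.28) followed, and in KO cells the next were Atp5sl (-0.32) and Uqcrb (-0.47).

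In the limma fit over both genotypes, 6 complex II to V genes fell with AGO2 relative to input, where 5.75% of all genes did, and 0 rose, where 4.45% of all genes did. They were Uqcr10 (-2.89 ± 0.38, SE), Cox4i1 (-2.46 ± 0.38), Cox7b (-2.43 ± 0.39), Cox7a2 (-2.34 ± 0.38), Cyc1 (-2.02 ± 0.41) and Uqcrq (-1.82 ± 0.39), with limma adjusted p of 0.037 to 0.050. A further 18 were lower and 3 were higher at an unadjusted limma p under 0.05 only. Of all 18894 genes, 6328 had such an unadjusted p in either direction, with the called genes counted in. The count of 6 was 0 with quantile normalization, where 0 of all 18894 genes were lower. Without a filter on dim probes it was 4 (572 of 34812 genes), and with the median of a gene's probes 5 (1054 of 19011 genes). It was 18 with arrays centred on the median (1991 of 18894) and 21 with only the 4 arrays compared (2550 of 18894). With normexp it was 22 (2432 of 18894), with an intensity trend 22 (2201 of 18894), and with genes bright on every array 23 (2584 of 12387).

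In IgG-RIP over input, Cox7b was the lowest in WT cells and second lowest in KO cells. It had 1.61 (KO) and 1.52 (WT) with IgG and 4.37 (KO) and 4.73 (WT) in input, or -2.76 in KO and -3.22 in WT cells. Cox6b1 was lowest in KO cells, at -3.12, with -3.20 in WT cells. Other low genes in KO cells were Uqcr10 (-2.69), Cox4i1 (-2.48) and Atp5c1-ps (-2.26), and in WT cells Uqcr11 (-3.12), Atp5e (-3.03) and Uqcr10 (-2.96). The highest were Atp5g1, at 2.21 in KO and 2.24 in WT cells, and Cox6b2, at 1.81 in KO and -0.35 in WT cells. In KO cells Atp5sl (-0.12), Cox6a2 (-0.28) and Cox7a1 (-0.51) followed, and in WT cells Uqcrc2 (-0.72), Sdha (-0.81) and Uqcrc1 (-1.16). In the limma fit with quantile normalization 7 genes fell, as did 1263 of all 18894 genes. In the main limma fit 31 genes fell (15.8% of all genes did) and 2 rose (14.3% of all genes did).

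The 10 fallen genes with the smallest p in that fit were Cox7b (-2.99 ± 0.39, SE), Uqcr10, Cox4i1, Cox6b1 (-3.16 ± 0.48), Cox7a2, Atp5j2, Cox6c, Atp5c1-ps, Atp5c1 and Uqcrq, from -3.16 to -2.06, with limma adjusted p of 0.020 to 0.024. The 2 that rose were Atp5g1 (2.23 ± 0.45, limma adjusted p = 0.026) and Cox4i2 (2.82 ± 0.46, limma adjusted p = 0.021), and Cox4i2 was dim on both input arrays, where its fitted values are surrogates. Of the 4 complex II genes, Sdhb (-1.64 ± 0.37) and Sdhd (-1.56 ± 0.42) fell. The Atp5g1 probe for the RefSeq transcript was lower in both precipitates than in input, with IgG over input at -0.999 in KO and -1.41 in WT cells.

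Before precipitation the genotypes differed little. KO over WT in input had a median of -0.26 over 44 measured genes, against -0.08 for all genes. Below 0 lay 35 of the 44, and 8516 of all 14667 genes. At least 2-fold lower in KO cells was 1 gene, Cox6a2 (1.72% of all genes were), with -0.59 in KO and 0.75 in WT cells, a difference of -1.34 that was under 2-fold with normexp, and 0 genes were at least 2-fold higher (1.02% of all genes). Atp5s, dim in KO input, was at least 2.15-fold lower. The complex medians were -0.06 (II), -0.30 (III), -0.37 (IV) and -0.22 (V), and all 14 measured complex IV genes lay below 0, with Cox4i1 the highest at -0.04. After Cox6a2 the lowest were Cox6b2 (-0.76), Uqcrq (-0.70), Atp5sl (-0.64) and Atp5k (-0.62). The highest were Atp5c1-ps (0.35), Sdha (0.32), Uqcrc1 (0.14), Uqcrc2 (0.10) and Atp5c1 (0.08). Most of these differences are within a few times the spot noise of 0.20. The probe used for Atp5k is annotated to chromosome Y, although its other 2 probes gave the same direction, at -0.47 and -0.28.

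Over all fractions the limma term for KO over WT called 0 of 18894 genes in each direction (0%), with 840 at an unadjusted p under 0.05, among which was 1 complex II to V gene, Atp5s.

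The difference between genotypes in AGO2 over IgG, KO minus WT, had a median of -0.80 over 43 genes, against -0.03 over all 14052 genes measured on the 4 arrays. At least 2-fold lower in KO cells were 14 of the 43 (20.2% of all genes), and 1 was at least 2-fold higher (16.5% of all genes). With arrays centred on their medians 25 were lower, as were 4005 of all 14052 genes, against 2837 before. Centring moved the median of all genes to -0.35. It shifts every gene of an array by the same amount, so the median of the 43 relative to all genes, -0.77, cannot change with it. Before centring the complex medians were -0.37 (II), -0.75 (III), -0.80 (IV) and -0.86 (V). All 9 measured genes of complex III and all 13 of complex IV lay below 0, as did 7204 of all 14052 genes. The lowest were Cox6b2 (-3.51), Cox7a1 (-3.45), Atp5sl (-2.96), Sdhc (-2.49) and Atp5e (-2.06). Cox6b2 and Atp5sl each rest on 1 probe that was faint, though above background, on 1 of the arrays compared. Above 0 were the Ensembl probe of Atp5g1 (1.05), Sdha (0.74), Atp5a1 (0.58), Atp5b (0.34), Sdhb (0.20) and Atp5j (0.07).

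Both precipitates entered into this difference, the AGO2-RIP more than the IgG-RIP. On the AGO2-RIP arrays KO minus WT had a median of -0.57 over 44 genes, with 40 below 0. For all genes it was -0.03, with 8469 of 16395 below 0. On the IgG-RIP arrays the median was 0.15 over 44 genes, with 31 above 0. For all genes it was -0.01, with 7324 of 14891 above 0. By complex, the AGO2-RIP medians were -0.48 (II), -0.58 (III), -0.63 (IV) and -0.56 (V), and the IgG-RIP medians were -0.11, 0.17, 0.05 and 0.19 in the same order. Atp5e shows both: KO was lower than WT with AGO2 (5.70 and 7.02) and higher with IgG (5.69 and 4.95). With 1 array in each group, no part of this was tested.

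Several other lists of mitochondrial genes were also described, and most but not all lay higher with AGO2 in WT cells. Complex I genes, the first step of the chain, had AGO2 over IgG medians of 0.33 in KO and 0.97 in WT cells (42 measured in each) and a KO minus WT median of -0.72. Assembly factors of complexes II to V had 0.29 in KO (22 measured) and 1.02 in WT cells (21 measured). The highest of them were Cox11, a copper chaperone of complex IV (2.47 in KO, 3.76 in WT), and Cox16 (2.06 in KO, 3.42 in WT). Bcs1l, which inserts the Rieske protein into complex III, had -2.80 in KO and 2.14 in WT cells. The 6 mitochondrially encoded subunits of complexes III to V had medians of 0.35 in KO and 1.31 in WT cells, and all 6 were lower in KO than in WT input, with a median of -0.71. The list of cytochrome c and ubiquinone synthesis genes had medians of -0.09 in KO (6 measured) and 0.04 in WT cells (5 measured). Its highest was Cycs, cytochrome c (0.97 in KO, 1.38 in WT), and its lowest were Coq9 in KO (-1.20) and Coq7 in WT cells (-1.50).

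Transcription factors and coactivators of mitochondrial genes had a median of 1.31 in KO (7 measured) and 1.39 in WT cells (8 measured), with Esrra at 4.71 in KO. The vacuolar ATPase, a rotary ATPase of lysosomes and not of mitochondria, had 0.12 in KO (15 measured) and 0.86 in WT cells (13 measured), close to the 0.84 of the complex II to V genes in WT cells. The 8 macrophage markers had -0.38 in KO (8 measured) and 0.10 in WT cells (7 measured).

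Of the 49 probes used, 20 (40.8%) held an Alu I or Rsa I site, against 34.9% of all 60-base probes. Genes whose probe had a site and genes whose probe had none had AGO2 over IgG medians of 0.05 and 0.02 in KO cells, and of 0.74 and 0.85 in WT cells. For IgG over input they were -1.46 and -1.78 in KO cells, and -2.00 and -2.18 in WT cells. The direction of these medians was the same with and without a site.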

How the data were processed

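RNA of 6 groups was measured on 6 Agilent 1-colour (Cy3) arrays, 1 per group. Per the labels' protocols, RNA was reverse-transcribed and pre-amplified before labelling, which can weight transcripts unequally. The deposited intensity is the processed signal of Agilent Feature Extraction 10.7.3.1, with background subtracted and a surrogate value for dim spots, per the file headers and the submitters' processing notes, and it was not normalized between arrays. Here each array's 75th percentile, taken over 59305 non-control spots, was subtracted from log2 of the deposited intensity. Outlier spots were left out, which removed 54 probes, and spots of a probe were averaged. A gene counted as measured where it was well above background on both arrays compared, and as changed past 2-fold. Spots saturated: 0. Symbols were checked through RefSeq accessions or, where an accession was not found, the gene name or a synonym (49 of 49 matched, 3 renamed). limma 3.58.1 in R 4.3.3 (lmFit, eBayes, two-sided, Benjamini-Hochberg over all genes) used genes above background on at least 2 arrays and was tested on simulated data. Python 3.11.15, numpy 2.4.6 and pandas 2.3.3 did the rest. Named genes are the 4 Sdh genes, the isoform families, the 5 highest and 5 lowest in each comparison, each complex's highest and lowest, and up to 10 limma calls per direction. Any other gene was named with its value known. The genes and lists were chosen with earlier results of these data known. Alternatives were other scalings, background corrections, filters, thresholds and probe rules.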

Additional observations from a re-analysis of the deposited data

Results flagged for a closer look

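Sdhc and Cox6a2 lay in opposite directions with AGO2 relative to IgG in the 2 genotypes, each past 2-fold. Sdhc had -1.08 in KO and 1.40 in WT cells on the log2 scale. Cox6a2 was dim on 1 array of each pair. Its value of -1.601 in KO cells takes the dim reading as it is and is no strict limit, and its bound in WT cells was 1.49. The difference between genotypes was not tested for either gene, since each value rests on 1 array per group. The second Sdhc probe gave 0.08 in KO and 1.06 in WT cells.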

How the results depend on the processing

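No paired analysis was possible because each group has 1 array and so no replicate numbers to pair by, although the limma fits already hold genotype as a term and so compare fractions within genotype. For the same reason no array could be left out of a comparison. No value past its threshold changed sign under any alternative run. Numbers below are counts of complex II to V genes, or their median minus that of all genes on the log2 scale. Under the main settings the medians minus all genes were 0.22 (KO) and 1.09 (WT) for AGO2 over IgG, -1.16 (KO) and -0.84 (WT) for AGO2 over input, -1.38 (KO) and -1.71 (WT) for IgG over input, -0.18 for KO over WT in input and -0.77 for KO minus WT of AGO2 over IgG. With arrays centred on the median, 25 genes were 2-fold higher in WT AGO2 over IgG (3984 of all 15213 genes). With that centring 25 were lower in KO minus WT (4005 of 14052), and limma called 18 lower in AGO2 over input (1991 of 18894). With quantile normalization, WT AGO2 over IgG had 0.83 and IgG over input had -1.003 (KO) and -1.08 (WT). AGO2 over input had -0.68 with 19 lower in KO (3027 of all 15287 genes) and -0.44 with 12 lower in WT (2923 of 14421). Under this setting limma called 0 lower in AGO2 over input (0 of 18894 genes) and 7 lower in IgG over input (1263 of 18894). With normexp, 0 were lower in KO over WT input (51 of 14667 genes). limma then called 2 higher in AGO2 over IgG (248 of 18894) and 22 lower in AGO2 over input (2432 of 18894). Restricted to genes above background on all 6 arrays, these were 0 (137 of 12387 genes), 3 (538) and 23 (2584). That filter leaves out Cox6a2, the 1 gene past 2-fold in input. With an intensity trend, limma called 2 higher in AGO2 over IgG (378 of 18894) and 22 lower in AGO2 over input (2201 of 18894). With only the 4 arrays compared, 21 were lower in AGO2 over input (2550 of 18894 genes) and 20 in IgG over input (1628 of 18894). Without a filter on dim probes, WT AGO2 over IgG had 1.34, WT AGO2 over input -0.40, and IgG over input -1.85 (KO) and -2.03 (WT). KO over WT input then had 0.070 with 2 lower (2170 of 34812 genes), so that the sign of its small offset from all genes depends on the filter. At 1.5-fold, 7 in KO (2902 of all 15651 genes) and 29 in WT (4383 of 15213) were higher in AGO2 over IgG. At that threshold 7 were lower in KO over WT input (1413 of 14667) and 27 in KO minus WT (4414 of 14052). At 3-fold, 17 in KO (2021 of all 15287 genes) and 15 in WT (2069 of 14421) were lower in AGO2 over input. At that threshold 0 were lower in KO over WT input (51 of 14667) and 6 in KO minus WT (1370 of 14052). The cause of these shifts was not tested. Median centring moved the median of all genes in WT AGO2 over IgG to 0.06, against -0.24. The higher share of all genes past 2-fold in that comparison was 47.8%, with 66.4% under centring and 68.5% under normexp, and in KO it was 51.3%, with 67.5% under normexp. For AGO2 over input it was 35.6% (KO) and 36.0% (WT), with 16% (KO) and 23.5% (WT) under centring and 46.8% (KO) and 46.1% (WT) under quantile normalization. For IgG over input it was 37.8% (KO) and 33.5% (WT), with 19.2% (KO) and 17.8% (WT) under centring and 50.1% (KO) and 45.9% (WT) under quantile normalization. For KO minus WT it was 44.9%, with 25.5% under centring, 34.9% under normexp and 54.2% under quantile normalization. Of the genes, 6 were dim on at least 1 array, and a comparison with such an array gave only a bound or no value. Of these, 3 were above background on no array.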
